A study of Mus musculus with 23 samples.

Results

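Pituitary hormones and their regulators were followed through 10 genes on arrays of whole brain from adult male mice. They are growth hormone (Gh), prolactin (Prl), the shared glycoprotein alpha subunit (Cga), the beta subunits of thyroid stimulating, luteinizing and follicle stimulating hormone (Tshb, Lhb and Fshb), the transcription factors Pou1f1 and Pitx1, and the receptors of gonadotropin releasing hormone (Gnrhr) and of growth hormone releasing hormone (Ghrhr). Every probe that carries 1 of these names was taken, which gave 10 of the 31829 gene and transcript names and 11 of the 39429 probes on the array, 2 of them for Pou1f1 and 1 for each of the other 9 genes. The genes were chosen by their measured levels on these same arrays, so their levels and differences are described here without a test.

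All mice were C57BL/6J progeny of eggs fertilized in vitro, carried by ICR recipient mothers, delivered by caesarean section and raised by ICR foster mothers. The mothers of the 4 CD mice ate the control diet (AIN93G), those of the 4 PR mice a protein-restricted diet, and those of the 4 FA mice the protein-restricted diet with added folic acid, and the progeny of all 3 groups ate the control diet after weaning. The mice had gone through behavioral tests, and whole brains with cerebrum and cerebellum were then taken for RNA. Each mouse stands for 1 single-colour array, and the sources do not say from how many litters the 4 mice of a group came, so that errors and p-values cover only the spread between these samples.

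The anterior pituitary hangs below the hypothalamus and is not part of the brain proper. Its somatotrophs make growth hormone, its lactotrophs make prolactin, and both cell types depend on Pou1f1. Thyrotrophs and gonadotrophs make hormones of 2 chains, in which the alpha subunit Cga pairs with a beta subunit that sets the kind of hormone. Cga and Tshb are also made in the pars tuberalis, a thin sheet of pituitary tissue that wraps the stalk and the median eminence. Releasing and inhibiting factors from the hypothalamus, such as Ghrh, Trh and Sst, act on receptors of these cells. In bulk tissue, fewer cells of a type and less RNA per cell cannot be told apart.

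Levels are log2 of the deposited normalized intensity, and a probe is called detected on an array where the scanner software marked it as well above background. The scanner marked 27068 to 28458 spots on the CD arrays, 31266 to 33478 on the PR arrays and 30408 to 31672 on the FA arrays. The dimmest detected probe was at 4.75 to 5.28 on the CD arrays, at 3.23 to 3.82 on the PR arrays and at 3.70 to 4.01 on the FA arrays, so a dim probe could be detected in the PR and FA groups at a level that was not detected in CD mice. The 4 arrays of each diet lay on 1 slide of their own, so slide and diet cannot be told apart. Each probe of the 10 genes had 1 spot per array, and none of their 132 spot values was marked as an outlier.

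Probe and promoter sequences show what was measured for the genes on which the results turn. The Gh probe is given whole, because it lies across an exon junction: its 60 bases are spread over 244 bases of chromosome 11 (mm9, 106162492 to 106162735, minus strand, NM_008117).

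Gh probe A_51_P104687: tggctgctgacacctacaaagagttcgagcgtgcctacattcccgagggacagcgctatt

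Both Pou1f1 probes lie on chromosome 16 (mm9, plus strand) and gave very different levels, so the first 30 bases of each are shown. The first probe is assigned to NM_008849 and lies at 65534256 to 65534315. The second is assigned to ENSMUST00000116588 alone and lies at 65534889 to 65534948. Capitals mark the run of TC repeats with which the second probe opens.

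Pou1f1 probe A_55_P2017060: gaaaacaagtctcaatcagagcctgttctc

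Pou1f1 probe A_55_P2017066: TCTCTCTCTCTCTCTCTCtttcttttagat

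Promoters of 7 of the 10 genes could be matched in RefSeq (GRCm38.p6). They were searched on both strands for TATNCAT (the core recognized by Pou1f1), TAATCC (the core recognized by Pitx factors) and TATAAA (the TATA box). The window ran from 250 bases before to 50 bases after the start site. Among all 32851 promoters, 8.84% held TATNCAT, 7.06% held TAATCC and 13.6% held TATAAA. The stretches before the start site of Prl and Cga are printed, since Cga was detected on nearly every array and Prl was not. Capitals mark the matches.

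Prl, chr13:27057320-27057569 (plus strand): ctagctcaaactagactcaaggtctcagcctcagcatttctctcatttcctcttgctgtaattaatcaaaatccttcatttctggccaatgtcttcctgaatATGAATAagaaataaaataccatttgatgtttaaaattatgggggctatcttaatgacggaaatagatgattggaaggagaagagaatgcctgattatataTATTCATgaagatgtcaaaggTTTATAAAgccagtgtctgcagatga

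Cga, chr4:34893529-34893778 (plus strand): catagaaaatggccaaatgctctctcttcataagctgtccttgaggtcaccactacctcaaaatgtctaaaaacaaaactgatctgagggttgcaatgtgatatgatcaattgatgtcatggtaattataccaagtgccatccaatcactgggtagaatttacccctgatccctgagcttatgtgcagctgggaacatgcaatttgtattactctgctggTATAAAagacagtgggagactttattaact

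With positions counted from the start site, the Prl stretch held TATNCAT at −148 (minus strand) and at −47 (plus strand), and TATAAA at −26 (minus strand) and −24 (plus strand), which overlap. The Cga stretch held TATAAA alone, at −30. Of the 8 promoters of the 7 genes, only those of Prl and the upstream promoter of Pou1f1 held TATNCAT, and none held TAATCC. The match of letters is a description, and the binding of a factor was not measured.

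The clearest pattern was that of Gh and Prl. Both hormones were detected on all 4 arrays of the CD group, on no array of the PR group and on 1 array of the FA group, that of FA replicate 4. The Gh levels were 7.84, 8.37, 7.73 and 7.82 in CD mice, 2.24, 2.27, 3.10 and 2.84 in PR mice, and 2.58, 2.27, 2.26 and 6.16 in FA mice. The 4 CD arrays lay above all 8 others, and FA replicate 4 lay between them and the 7 arrays without a detected signal.

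Prl followed the same arrays. Its levels were 7.89, 7.84, 7.98 and 7.91 in CD mice, 3.83, 3.09, 3.83 and 2.65 in PR mice, and 2.41, 2.47, 2.39 and 7.35 in FA mice. The 4 CD values lay within 7.84 to 7.98, and FA replicate 4 was the next array below them. The other 3 FA arrays were below every PR array, although none of these 7 values was a detected signal and their order carries no information.

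Because neither hormone was detected in PR mice, its fold difference is given as a lower bound on the deposited scale. Each PR array entered at its dimmest detected probe, or at the measured value where that was higher. An undetected value could exceed that probe: Prl was at 3.83 on PR replicates 1 and 3, against 3.75 and 3.74. With normexp background correction the measured differences were smaller, −1.94 log2 units for Gh and −1.65 for Prl. Gh was at least 19.8-fold lower in PR mice than in CD mice, where its mean was 7.94 ± 0.29 (SD, n = 4). Prl was at least 18.7-fold lower, against a CD mean of 7.90 ± 0.06 (SD, n = 4). The FA means, 3.32 ± 1.90 for Gh and 3.66 ± 2.47 for Prl (SD, n = 4), were made of 1 detected and 3 undetected arrays. The FA group overlapped the PR group for both hormones and lay below the CD group. Without FA replicate 4 neither hormone was detected in FA mice, where Gh was then at least 16.5-fold and Prl at least 16.1-fold lower than in CD mice.

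**Figure D1:**
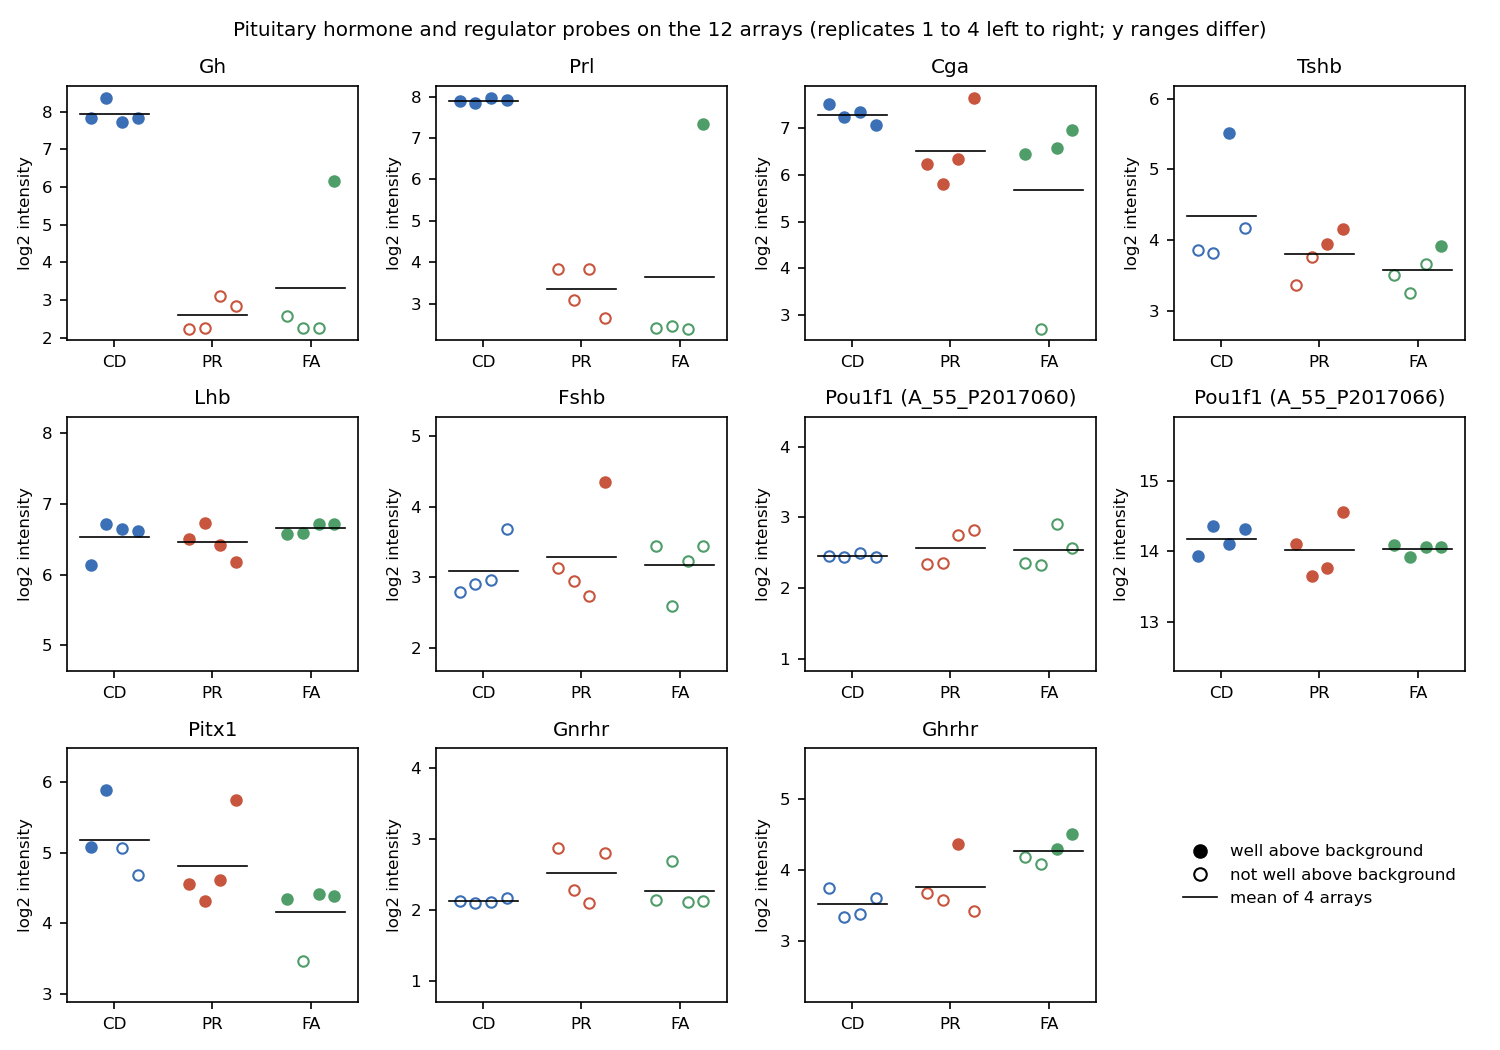
Log2 intensity of the 11 probes on each array, by maternal diet (CD, PR, FA), with filled points where the probe was well above background, open points where it was not, and a line at the mean of 4 arrays. Gh and Prl were filled on all 4 CD arrays and on FA replicate 4, and Cga was filled on all arrays but FA replicate 2. The y ranges differ between panels.

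This pattern of detection was counted over all probes, as a description, since the genes were chosen by these levels. Of all 39429 probes, 2 were detected on all 4 CD arrays and no PR array, and these were the Gh and Prl probes. In the opposite direction, 1552 probes were detected on all 4 PR arrays and no CD array. The limit of detection was higher on the CD arrays, so the counts of the 2 directions cannot be compared. The same 2 probes were also the only ones with the 12-array pattern of Gh, with FA replicate 4 included. Between the CD and FA groups, 1 probe (Gm2557) was detected on all 4 CD arrays and no FA array, and 1260 probes on all 4 FA arrays and no CD array. Gm2557 is named here after its values were seen.

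The likeness of the Prl profile to that of Gh was measured after values below the dimmest detected probe of an array were raised to it. Prl was chosen with these values known, so the likeness is a description. The root mean square difference of the centred profiles over the 12 arrays was 0.373 log2 units for Prl. The 8 genes outside the pituitary set with the closest profiles were 2010003O02Rik (1.05), LOC100041223 (1.08), LOC634541 (1.09), ENSMUST00000114659 (1.10), 1700018B24Rik (1.10), ENSMUST00000109251 (1.13), D930027P08Rik (1.13) and Cyp2c50 (1.13). Among these, ENSMUST00000114659 was detected on all 12 arrays, with 11.53 to 13.06 in CD mice and 9.47 to 10.40 in the other groups. The other 7 were detected on 2 or 3 of the CD arrays, and on no FA array. None of the 8 was high on FA replicate 4, where ENSMUST00000114659 had its lowest value (9.47) of the 12 arrays. Without the floor, Prl was again the closest (0.59, against 1.41 for the next gene), and only 2 of the 8 genes were listed again.

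**Figure D2:**
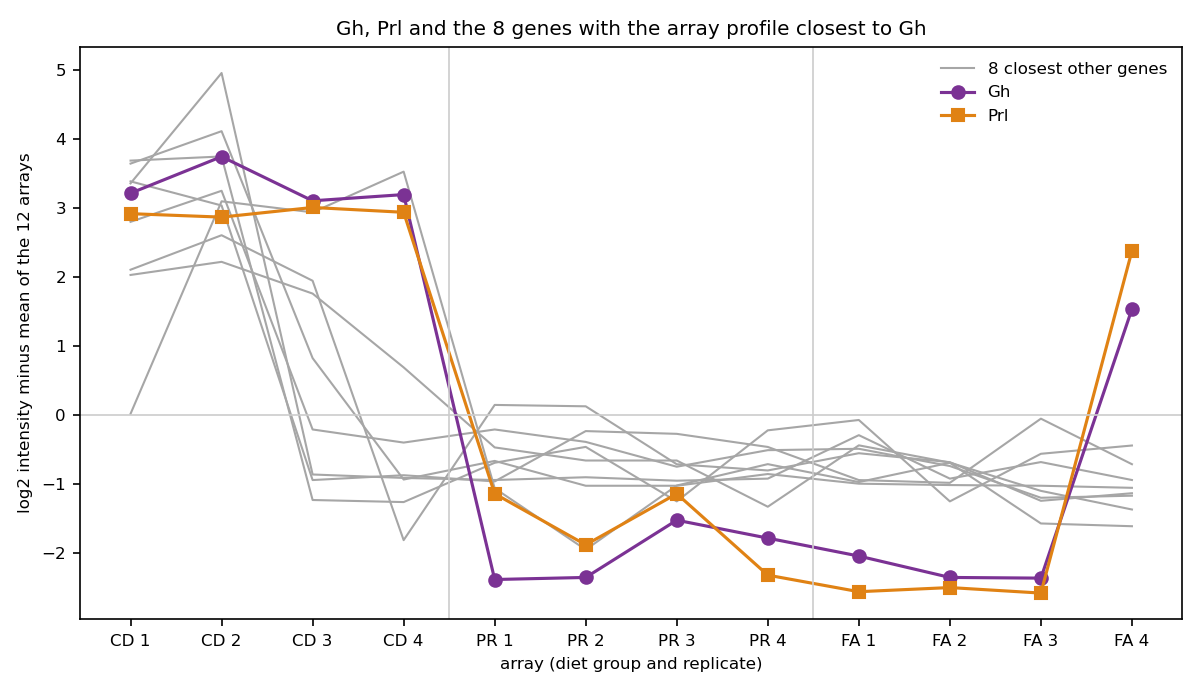
Log2 intensity minus the mean of the 12 arrays for Gh, Prl and the 8 other genes with the array profile closest to Gh, by array. Gh and Prl were high on the CD arrays and on FA replicate 4, while the 8 grey profiles were high on some or all CD arrays and low on FA replicate 4.

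FA replicate 4 was then compared with the highest of the other 3 FA arrays, over the 28736 probes detected on it. Values of the other arrays below their dimmest detected probe were raised to it. An excess over undetected values is therefore given as a lower bound on this scale. Prl exceeded the other FA arrays by at least 3.34 log2 units and Gh by at least 2.15. The other 7 of the 8 probes with the largest measured excess were Gm14222 (at least 9.74), Spz1 (at least 8.72), Vmn2r12 (at least 5.40), Rnase6 (5.21, detected on all FA arrays), ENSMUST00000103544 (at least 4.18), 9030622O22Rik (at least 3.97) and H2-M10.1 (at least 3.11). Unlike Gh and Prl, none of these 7 was high in CD mice: their CD levels were 2.23 to 5.75. Of all probes detected on FA replicate 4, 20 (0.0696%) exceeded the other FA arrays more than 8-fold on this scale, against 0.125% to 0.197% on each of the other FA arrays. Cga exceeded the other FA arrays by 0.39 log2 units and Ghrhr by 0.22, and Tshb, Lhb, Pitx1 and the second Pou1f1 probe did not exceed them.

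**Figure D3:**
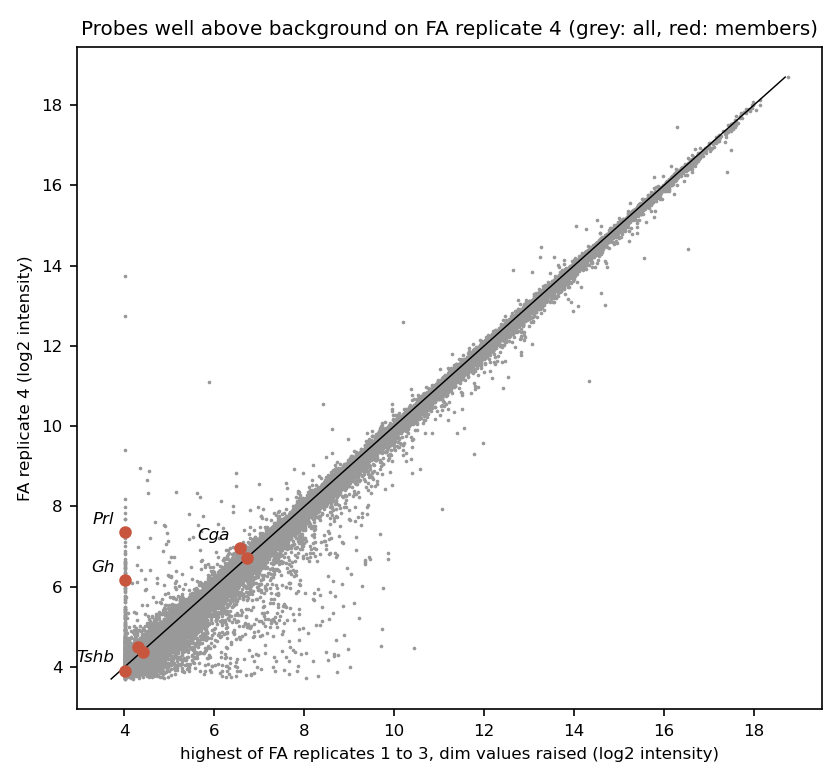
Level on FA replicate 4 against the highest of FA replicates 1 to 3 (both log2 intensity, with values on the x axis below the dimmest detected probe of their array raised to it) for the probes detected on FA replicate 4, with the line of equality and members of the pituitary set in red. Prl and Gh lay at least 3.34 and 2.15 log2 units above the line, and Cga, Tshb and the other members shown lay near it.

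The glycoprotein hormone subunits did not share this pattern. Cga was detected on 11 of the 12 arrays, with 7.52, 7.24, 7.35 and 7.07 in CD mice, 6.24, 5.80, 6.34 and 7.66 in PR mice, and 6.45, 2.70, 6.57 and 6.97 in FA mice. PR replicate 4 was the highest of all 12 arrays, and FA replicate 2 was the only array without a detected signal. The means were 7.30 ± 0.19, 6.51 ± 0.80 and 5.67 ± 1.99 (SD, n = 4). The PR values overlapped those of the CD group. The 4 FA values were below all CD values, with FA replicate 4 (6.97) next to CD replicate 4 (7.07).

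The beta subunits were dim. Tshb was at 3.86, 3.81, 5.51 and 4.17 in CD mice, where only CD replicate 3 was detected, at 3.36, 3.76, 3.94 and 4.15 in PR mice, with replicates 3 and 4 detected, and at 3.51, 3.25, 3.66 and 3.91 in FA mice, with replicate 4 detected. CD replicate 3 stood above the 11 other values, which overlapped between the groups. The 4.17 of CD replicate 4 was not detected while the 3.91 of FA replicate 4 was, which shows the unequal limit of detection. Fshb was detected on PR replicate 4 alone (4.35), and its other 11 values were 2.59 to 3.69. Lhb was detected on all 12 arrays, at 6.13 to 6.72 in CD mice, 6.18 to 6.73 in PR mice and 6.58 to 6.72 in FA mice, and its group means of 6.53 ± 0.27, 6.46 ± 0.23 and 6.65 ± 0.08 (SD, n = 4) lay within 0.19 log2 units of each other.

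The regulators gave a mixed picture. Pitx1, a factor of the early and adult pituitary that acts on many hormone promoters, was at 5.08, 5.89, 5.06 and 4.68 in CD mice, at 4.55, 4.32, 4.61 and 5.74 in PR mice and at 4.34, 3.47, 4.42 and 4.38 in FA mice. It was detected on 2 CD, 4 PR and 3 FA arrays. PR replicate 4 stood above the other PR arrays and FA replicate 2 was below all others, as for Cga. All 4 FA values lay below all CD values, and the PR values overlapped both groups. PR replicate 4 was also the highest PR array for Tshb, Fshb and the second Pou1f1 probe, while Gh and Prl were not detected on it. It was the array with the most detected probes (30413) and the lowest limit of detection (3.23), and the part of this in these levels was not tested.

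The probes of Pou1f1, the factor that switches on Gh, Prl and Tshb, disagreed. The NM_008849 probe was detected on no array, at 2.33 to 2.91, so these arrays did not detect that transcript even in CD mice, where Gh and Prl were detected. The ENSMUST00000116588 probe was detected on all 12 arrays, at 13.93 to 14.36 in CD mice, 13.65 to 14.55 in PR mice and 13.92 to 14.09 in FA mice, and the 3 groups overlapped. Its sequence opens with TC repeats, as printed above. Over all arrays, the 9 probes that hold at least 7 TC repeats in a row had mean levels of 8.07 to 14.31 (median 12.79), against a median of 7.10 over all 39429 probes, and neither the part of the repeat in the level of the second probe nor whether that probe measures Pou1f1 was tested.

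The receptors were at or near background. Gnrhr, the receptor by which gonadotrophs respond to gonadotropin releasing hormone, was detected on no array (2.10 to 2.88). Ghrhr, the receptor by which somatotrophs respond to Ghrh, was detected on PR replicate 3 (4.37), FA replicate 3 (4.29) and FA replicate 4 (4.51). Its CD values of 3.34 to 3.74 were below all 4 FA values of 4.09 to 4.51, but the dimmest detected probe of the CD arrays was brighter than any of these, so no fold is given.

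Across the set, 2 of the 11 probes (Gh and Prl) did not overlap between the PR and CD groups, beside a background of 19.0% of all probes lower and 14.2% higher in PR mice without overlap. Between the FA and CD groups 5 of the 11 did not overlap (Gh, Prl, Cga and Pitx1 lower, Ghrhr higher), beside 19.7% of all probes lower and 17.1% higher. Between the FA and PR groups 0 of the 11 were without overlap, beside 4.94% lower and 6.15% higher. Both comparisons with the CD group used the same 4 CD arrays. The contrasts are those by which the genes were chosen, and nothing is read from these counts.

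The pathway around these genes was described with 45 further genes in 3 lists: 20 other genes of the pituitary, 12 regulators from the hypothalamus, and 13 receptors and signalling genes on which the hormones act. Each was measured by its brightest probe. In the PR group, 8 of the 45 genes (17.8%) were lower and 5 (11.1%) higher than in CD mice by limma at an adjusted p under 0.05, beside 16.6% and 13.4% of all probes. With 75th percentile scaling, 7 were lower and 2 higher. In the FA group, 12 (26.7%) were lower and 1 (2.22%) higher than in CD mice, beside the 18.0% and 16.4% of all probes. Fshr and Lhcgr were among the genes called in both comparisons but were detected on no array, so they are not described further. Between the FA and PR groups 0 of the 45 were called by limma, with 3 at an unadjusted p under 0.05, and 0 by the Tukey test of the methods, beside 0.386% of all probes lower and 0.228% higher by limma. The median difference of the 45 genes was −0.12 log2 units for PR and −0.10 for FA relative to the CD group, against −0.016 and −0.0061 over all probes. Of the 11 detected genes called in each comparison, 3 in PR mice (Kiss1, Ghr and Stat5a) and 6 in FA mice (Esr1, Tac2, Prlr, Cish, Jak2 and Stat5b) were called under every alternative processing and with any single array left out, and each of the others lost its call under at least 1 of these.

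Of the 13 receptors and signalling genes, 8 were called in each comparison, and 6 of these were detected. In PR mice 5 of the 6 detected genes were lower and 1 higher, and in FA mice all 6 were lower, beside the shares of all probes given above (16.6% lower and 13.4% higher for PR, 18.0% and 16.4% for FA). Those shares include dim probes. With dim probes removed, 3775 of 27489 probes were lower and 4708 higher for PR, and 4545 lower and 5870 higher for FA. Prlr, the prolactin receptor, was at 9.61 in CD mice, 9.37 in PR mice and 9.17 in FA mice (means, n = 4). It fell by 0.25 log2 units in PR mice (SE 0.08, limma adjusted p = 0.0479) and differed by −0.44 in FA mice, also past the threshold (SE 0.08, limma adjusted p = 0.00248). Its second, dimmer probe differed from the CD mean by 0.32 in PR mice and 0.01 in FA mice, so the probes of this gene disagreed. Ghr, the growth hormone receptor, was lower in both groups by its brightest probe, by 0.24 and 0.20 log2 units (SE 0.06, limma adjusted p = 0.0139 and 0.0287), and its second probe differed by −0.09 and −0.05.

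Among the genes that carry the signal inside the cell, Jak2, Stat5a and Cish fell in both groups and Stat5b fell in FA mice. Jak2, the kinase bound to the growth hormone and prolactin receptors, was 11.78, 11.79, 11.59 and 11.63 in CD mice, 11.53, 11.58, 11.47 and 11.52 in PR mice, and 11.47, 11.51, 11.43 and 11.45 in FA mice. Every PR and FA array was below every CD array. The fall was 0.17 log2 units in PR mice (SE 0.05, limma adjusted p = 0.0328) and 0.23 in FA mice (adjusted p = 0.00700). Stat5a, a transcription factor activated by Jak2, fell by 0.39 in PR mice (SE 0.09, adjusted p = 0.0104) and by 0.28 in FA mice (adjusted p = 0.0411). Stat5b fell by 0.26 in FA mice (SE 0.07, adjusted p = 0.0165), with a second probe at −0.05, and its difference of −0.13 in PR mice did not pass the test (adjusted p = 0.198). With normexp background correction the difference of Stat5a in PR mice was −0.21. Cish, a gene switched on by Stat5 that dampens the signal, fell by 0.17 in PR mice (SE 0.06, adjusted p = 0.0492) and by 0.29 in FA mice (adjusted p = 0.00351). Dio2, which makes active thyroid hormone from its precursor, was the only detected gene of the list called higher, by 0.20 in PR mice (SE 0.07, adjusted p = 0.0456). It lost this call with 75th percentile scaling, and other detected genes of the list were higher in mean without a call. Socs2, another Stat5 target that dampens the signal, was named after its values were seen: it differed from the CD mean by 0.11 in PR mice and 0.19 in FA mice, and neither difference passed the test (adjusted p = 0.244 and 0.0624).

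Among the 12 hypothalamic regulators, 2 (16.7%) were lower and 1 (8.33%) higher in PR mice, and 3 (25.0%) were lower in FA mice. Of all probes, 16.6% were lower and 13.4% higher in PR mice, and 18.0% were lower in FA mice. Trh, the releasing hormone for thyrotropin and a stimulus for prolactin, was at 11.19, 11.07, 11.08 and 10.96 in CD mice, 10.60, 10.63, 10.72 and 10.62 in PR mice, and 10.51, 10.80, 11.02 and 10.28 in FA mice. The PR values did not reach the CD values, and FA replicate 3 did. Trh fell by 0.44 log2 units in PR mice (SE 0.13, limma adjusted p = 0.0317) and by 0.42 in FA mice (adjusted p = 0.0320). Kiss1, which drives the neurons of gonadotropin releasing hormone, fell by 0.23 in PR mice (SE 0.06, adjusted p = 0.0155), with a second probe at 0.03. Gal and Tac2, both neuropeptide genes, were lower in FA mice, with log2 differences of −0.45 and −0.21 (adjusted p = 0.0438 and 0.00748). Sst, which inhibits growth hormone release, rose by 0.17 in PR mice (SE 0.05, adjusted p = 0.0282), but with 75th percentile scaling the difference was 0.034 and was not called.

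Npvf, Ghrh and Pomc had larger differences of means between the PR and CD groups, at −0.87, −0.52 and −0.52 log2 units, that did not pass the test (limma adjusted p = 0.0611, 0.0603 and 0.107). Ghrh, the releasing hormone for growth hormone, was at 7.92 to 8.21 in CD mice and at 7.47 to 7.72 in PR mice, with no overlap. In the FA group it was at 8.01, 7.18, 8.16 and 7.48, so that FA replicates 1 and 3 lay in the CD range and FA replicates 2 and 4 below it. Pomc, which is made by hypothalamic neurons and by pituitary corticotrophs and melanotrophs, was at 10.31 to 10.45 in CD mice, at 9.73 to 10.03 in PR mice and at 10.19, 9.13, 10.41 and 10.10 in FA mice. FA replicate 2 was the lowest of the 12 arrays for both, and FA replicate 3 reached the CD range.

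**Figure D4:**
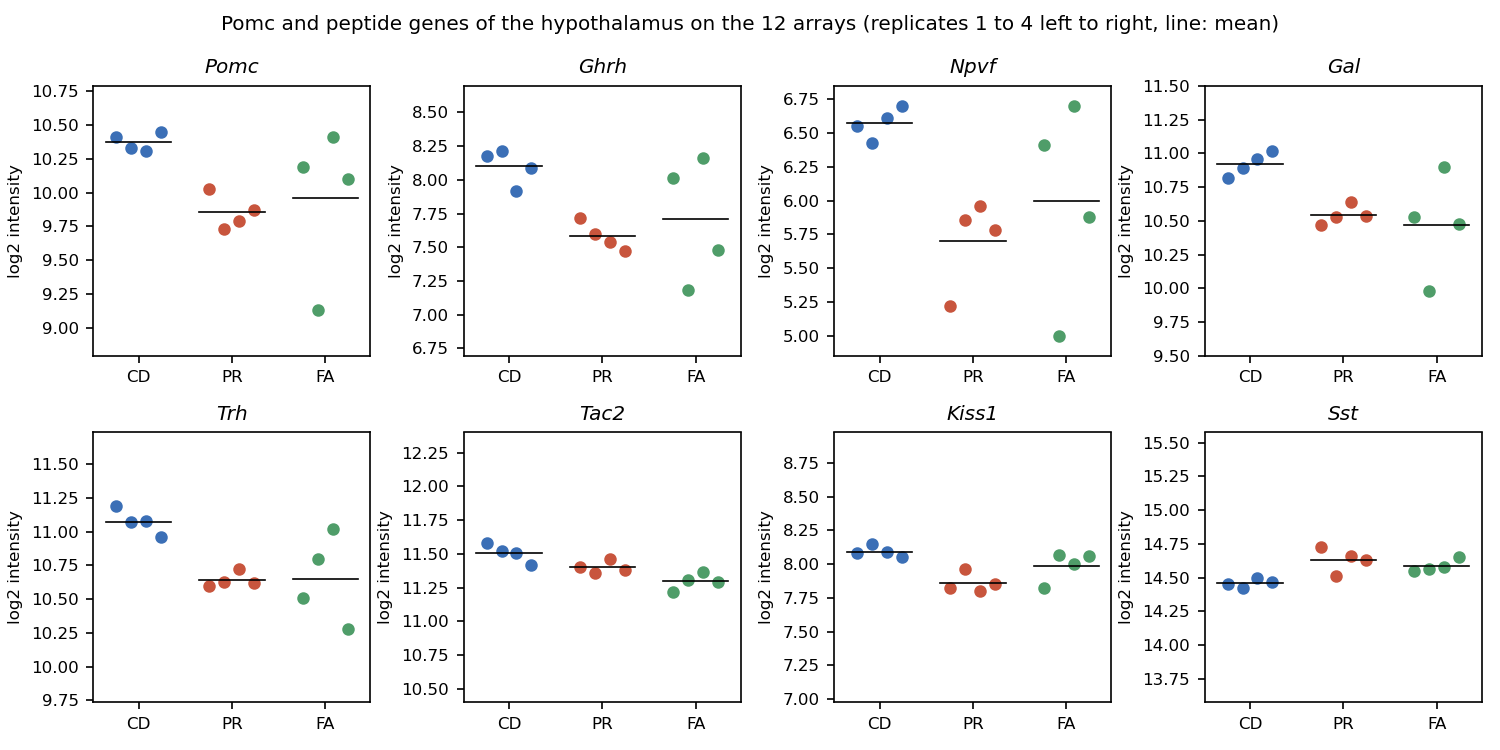
Log2 intensity of Pomc and 7 peptide genes of the hypothalamus on each array by maternal diet, with the mean of 4 arrays as a line. In Pomc, Ghrh, Npvf and Gal the 4 PR arrays lay below the 4 CD arrays, and the FA arrays spread from the lowest value of all (FA replicate 2) into the CD range (FA replicate 3).

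The FA arrays also took different places within the lists. Of the 14 other pituitary genes detected on all 12 arrays, 10 were lowest within the FA group on FA replicate 2, the array without detected Cga and Pitx1. Of the 11 hypothalamic regulators detected on all 12 arrays, 6 were lowest on FA replicate 2 and 9 highest on FA replicate 3. FA replicate 4, the FA array with Gh and Prl, was lowest for 1 and highest for 3 of the 14 pituitary genes. Of the 11 hypothalamic genes it was lowest for 2 and highest for 1. The third list differed: of its 10 receptors and signalling genes detected on all 12 arrays, FA replicate 2 was lowest for 4 and highest for 3. The same counts were not made over all probes, so these cannot be read as particular to the lists. FA replicate 2 had the fewest detected probes of the FA arrays (27549), and the part of this was not tested.

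Of the 20 other pituitary genes, 2 were higher in PR mice and 2 were lower in FA mice by limma, beside 13.4% of all probes higher in PR mice and 18.0% lower in FA mice. Sstr2, a somatostatin receptor found in the brain as well, rose by 0.30 log2 units in PR mice (SE 0.10, adjusted p = 0.0399). Esr1, the estrogen receptor alpha, fell by 0.41 in FA mice (SE 0.09, adjusted p = 0.00631), and its other 2 probes were detected on 0 and 2 arrays. Nr5a1, a factor of gonadotrophs and of the ventromedial hypothalamus, fell by 0.38 in FA mice (SE 0.12, adjusted p = 0.0331). Foxl2, a factor of gonadotrophs and thyrotrophs, rose by 0.46 in PR mice by its brightest probe (SE 0.13, adjusted p = 0.0244), which was at 15.08 to 15.95 over the 12 arrays, while its second, dimmer probe differed by −0.58. With 75th percentile scaling the difference of the bright probe was 0.29 and was not called, and whether so bright a probe measures Foxl2 was not tested. With normexp background correction the differences of Sstr2 in PR mice and of Esr1 and Nr5a1 in FA mice shrank to 0.17, −0.20 and −0.20, and Nr5a1 lost its call. The early pituitary factor Hesx1 and the corticotroph receptor Avpr1b were detected on no array.

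**Figure D5:**
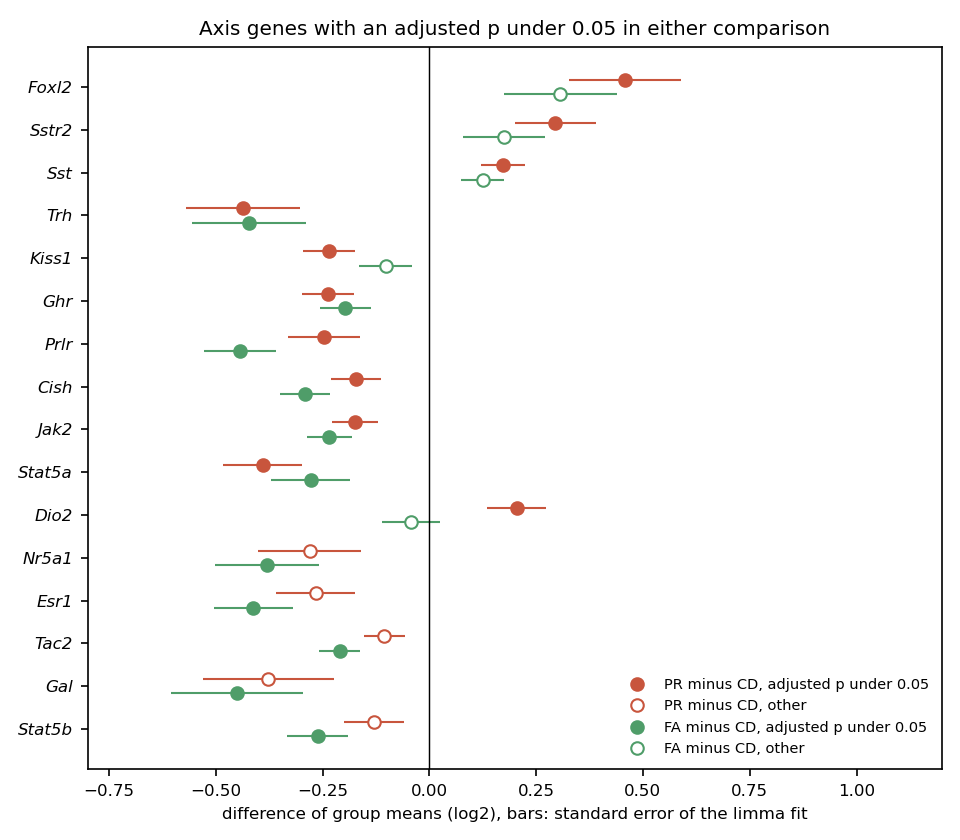
Difference of group means (log2) for the 16 genes of the 3 lists that were detected on all 12 arrays and had an adjusted p under 0.05 in either comparison, with the standard error of the limma fit. Filled points passed the test: all 11 filled FA points and 7 of the 11 filled PR points lay below 0, and both comparisons share the CD arrays.

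Markers of neighbouring tissues were read on the same arrays, and their part in the results was not tested. The summed linear level of 10 choroid plexus genes was 83900 to 90400 in CD mice, 80700 to 91800 in PR mice and 73200 to 85000 in FA mice. That of 7 brain cell genes was 331000 to 368000, 333000 to 365000 and 350000 to 361000, and that of 4 blood genes 123000 to 140000, 97700 to 151000 and 93600 to 137000. The sum of 4 genes of tanycytes and the median eminence, the part of the hypothalamus next to the pituitary stalk, was 1250 to 1340 in CD mice, 1050 to 1120 in PR mice and 1090 to 1260 in FA mice, so the CD and PR ranges did not overlap. The 8 meningeal genes summed to 22200 to 23300, 21600 to 22800 and 18500 to 26000. The sum of the 7 skeletal muscle genes was highest on FA replicate 1 (2380) and CD replicate 4 (1640), against 740 to 937 on the other 10 arrays. On CD replicate 4 this sum came from Acta1, at 10.47 against 9.05 to 9.18 on the other CD arrays. Ckm was lower there than on the other CD arrays (2.47 against 3.83 to 4.42). The sum of the 3 measured pineal genes was highest on FA replicate 1 (1350, against 786 to 1010 on the others), with Crx detected on no array. FA replicate 2 had the lowest of the 12 sums for the choroid plexus (73200), blood (93600) and meningeal genes (18500).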

How the data were processed

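RNA of whole brains was hybridized to Agilent whole mouse genome 4x44K arrays with Cy3, 4 arrays for each of the CD, PR and FA groups. Scanner intensity was extracted by the authors with Agilent Feature Extraction 11.0.1.1 on mm9, and the deposited table holds intensity values normalized by qspline, on a linear scale. The 11 methylated-DNA samples were not analysed here.

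Log2 of the deposited values was analysed, with the scanner's flag for signal well above background on at least 50% of a probe's spots. Probes were fitted with limma 3.58.1 in R 4.3.3 over the 3 groups, with Benjamini-Hochberg adjustment over 39429 probes and a two-sided threshold of 0.05, after a test on simulated data. The 10 genes and all gene lists were chosen with earlier results of these data known. Named were all probes of the 10 genes, called genes of the 3 lists and up to 3 uncalled ones detected on all arrays, the 8 genes most like Gh, and the 8 probes with the largest excess on FA replicate 4. Alternatives were scanner intensity scaled to the 75th percentile, quantile normalization, normexp with an offset of 50, removal of dim probes, a replicate block, trended robust variances, 2-group fits, the Tukey test of the methods, and leaving out each array. The values of 1 gene of the lists are not reported here, and it stays in the counts of its list. The number of arrays limits the precision.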

Additional observations from a re-analysis of the deposited data

Results flagged for a closer look

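Within each group of 4 arrays, the gap of the highest or lowest array to its neighbour was divided by the range of the group. Such groups came from all probes of the pituitary set and from the genes of the 3 lists detected on all 12 arrays. Of 138 such groups, 13 had a ratio above Dixon's 95% critical value for 4 samples. Undetected values were thus included for the pituitary set alone: Gh and Prl were undetected on the FA arrays other than FA replicate 4, and Cga and Pitx1 on FA replicate 2. Chance flags about 1 in 20, but the genes were chosen with these data known, so the count cannot be set against that rate and is a description. No explanation was tested. Of the 13, 8 lay in the FA group. FA replicate 4 stood above the other FA arrays for Prl (ratio 0.985) and Gh (0.918). FA replicate 2 stood below the others for Pitx1 (3.47 against 4.34 to 4.42, ratio 0.924), Cga (2.70 against 6.45 to 6.97, 0.879), the second Pou1f1 probe (13.92 against 14.06 to 14.09, 0.834) and Prlr (8.94 against 9.22 to 9.28, 0.832), and above them for Stat5a (7.80 against 7.67 to 7.68, 0.965). Stat5b was lowest on FA replicate 4 (11.09 against 11.35 to 11.37, 0.924).

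The other 5 lay in the CD group. Gh was highest on CD replicate 2 (8.37 against 7.73 to 7.84, ratio 0.834), and Lhb was lowest on CD replicate 1 (6.13 against 6.62 to 6.72, 0.844). Igf1 was highest (10.25 against 9.73 to 9.80, 0.861) and Stat5a lowest (7.80 against 8.03 to 8.06, 0.889) on CD replicate 4, and Ghr was lowest on CD replicate 2 (9.63 against 9.84 to 9.88, 0.851).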

How the results depend on the processing

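Gh and Prl stayed lower in mean than in the CD group with 75th percentile scaling, quantile normalization, normexp, means of linear values and any array left out, which were the alternatives run for them. With normexp background correction, which raises dim values, their measured differences, values not above background included, shrank to −1.94 and −1.65 log2 units in the PR group and to −1.73 and −1.44 in the FA group, and from means of linear values Prl was −2.42 in the FA group. Leaving out a CD or PR array, chosen as an alternative after seeing the data, moved the lower bound of the fold between CD and PR mice to 17.9 to 20.7 for Gh and to 16.9 to 19.4 for Prl. Over all measured differences of the 11 probes, 118 of 132 values under other processing moved by less than the spread between replicates. With an array left out 264 of 264 did so. Leaving out an array cannot move a group mean by as much as that spread, so this count was fixed in advance and says nothing about stability.

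Of the 13 list genes called in each comparison with the CD group, the Tukey test of the methods called 5 for PR and 8 for FA. It was run here at an adjusted p under 0.05, without the stricter p limit and the fold limit of the paper. Fshr and Lhcgr, detected on no array, were among the genes it called in both comparisons. Leaving out an array gave 5 (without PR replicate 4) to 17 (without FA replicate 2) for PR, 8 to 16 for FA and 0 between FA and PR. With 2-group fits, 14 were lower and 1 higher in the PR group. Over all probes, leaving out an array gave 9378 to 12266 calls for PR (11820 with all arrays) and 11465 to 13848 for FA (13558). Between FA and PR, 242 probes were called, against 142 with 75th percentile scaling (119 lower, 23 higher), 101 with 2-group fits, 8 by the Tukey test, 554 without dim probes, 436 with trended robust variances and 34 (without FA replicate 3) to 259 (without CD replicate 4) with an array left out. The cause was not tested. Replicate numbers did not pair the arrays (correlations of deviations −0.063 to 0.196), and a replicate block gave 11 list genes for PR, 12 for FA, and 11 probes between FA and PR. Slide as a block could not be fitted, since each slide held 1 group. Signal near background limits the values of Gh, Prl, Tshb, Fshb, Gnrhr and Ghrhr.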
